A study of Mus musculus with 8 samples.

Results

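Heat shock genes encode the cytosolic chaperones and helpers that heat shock factor 1 (HSF1) switches on when proteins misfold. Expression of 10 of them was compared between WT and DKO S0 cells as a readout of general or handling stress: Hsf1, Hspa8, Hspa1a, Hspa1b, Hsph1, Dnajb1, Bag3, Hsp90aa1, Hsp90ab1 and Hspb1. The members were taken by symbol, by a rule that used none of their values but was set with earlier results of these data known. They were found by gene identifier with the version dropped. All 10 were among the 52636 genes of the count table and among the 17378 genes that had enough counts to be tested.

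S0 cells are the lineage-negative fetal liver cells that carry neither CD71 nor Ter119, and they were sorted from mouse embryos at E12.5. The WT embryos carried both Vps13a and Vps13c, which encode lipid transfer proteins of membrane contact sites, and the DKO embryos lacked both genes. Mice were kept on a C57BL/6J background, the Vps13a knockout allele (tm1d) was made with FLP recombinase and β-actin-Cre and is therefore constitutive in the whole body, and the Vps13c allele is also a germline knockout. The crosses behind the DKO embryos, between Vps13a+/- parents that both lacked Vps13c, yield no WT littermates, so litter and genotype cannot be told apart. There were 4 libraries per genotype, each treated here as 1 embryo, which the sources used here do not state, so that p-values measure the spread between these samples.

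In resting cells HSF1 is held inactive by chaperones. When unfolded protein draws the chaperones away, HSF1 trimerizes and binds heat shock elements, which are repeats of the unit nGAAn in alternating orientation, upstream of its targets. HSP70 proteins bind exposed hydrophobic stretches of unfolded clients, J-domain proteins bring them clients, exchange factors release ADP from them, HSP90 finishes the folding of kinases and receptors, and small heat shock proteins hold clients without using ATP. In erythroid cells, HSP70 is also known to protect GATA1 from cleavage.

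In DKO, Hspa8 and Hsph1 of the HSP70 system and Hsf1 fell, the small heat shock gene Hspb1 rose, and the other 6 genes did not pass the test. Levels are given as normalized counts, which are counts scaled so that libraries of different depth and composition can be compared, and the test was edgeR's quasi-likelihood test with p-values adjusted over all genes tested. At an adjusted p under 0.05, 3 of the 10 genes were lower in DKO (Hspa8, Hsph1 and Hsf1), where 10.8% of all genes tested were lower, and 1 was higher (Hspb1), where 10.7% were higher. With the added demand of a log2 fold change beyond 1, no member was called lower by edgeR or DESeq2, beside 2.43% of genes in edgeR, since none had a log2 fold change below -1, and only Hspb1 was called higher, beside 6.19%. Every DKO library lay below every WT library for 3 of the 10 genes, against 14.6% of genes tested, and above every WT library for 1 of the 10, against 13.5%. The median log2 fold change was -0.19 over the 10 members and 0.03 over all genes tested. Of all genes past the adjusted p, 49.9% were higher in DKO, and under upper-quartile scaling, which moved the median of all genes to 0.14, this share was 66.7%.

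Libraries held 42114489 to 50886469 counts in WT and 36981439 to 42587815 in DKO. In normalized counts (mean ± SD of 4 libraries), Vps13a went from 1943 ± 130 in WT to 794 ± 194 in DKO, whereas Vps13c over the whole gene was at 583 ± 74.9 and 816 ± 279 and so does not check the labels. Reads of Ddx3y, a gene of the Y chromosome, were found in all WT libraries (2911 or more normalized counts) and in DKO replicate 3 (2516), but DKO replicates 1, 2 and 4 had at most 41.0 and held 18029 or more of the X-linked Xist. Sex and genotype therefore cannot be told apart here except through DKO replicate 3. The summed erythroid markers were at 40593 to 46234 normalized counts in WT, against 32903 to 52011 in DKO, and the summed hepatoblast markers were higher, at 441435 to 616154 and 146802 to 534160. At an adjusted p under 0.05, 3 of 5 granulocyte markers fell (sums of 101751 to 132328 in WT and of 5295 to 44983 in DKO), where 10.8% of all genes tested were lower. Likewise 5 of 6 mesenchyme markers rose (1982 to 5468 and 12151 to 40967), where 10.7% were higher. No marker was at 0 in all libraries, and the part of these cells in the heat shock results was not tested. In bulk RNA of sorted cells, fewer cells of a type and less RNA per cell cannot be told apart.

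Hsf1 (ENSMUSG00000022556.9, chromosome 15, plus strand, GRCm38 bases 76477422 to 76501913) encodes the factor that drives the response. Its level was 4495, 3980, 4404 and 4649 normalized counts in WT replicates 1 to 4, and 3006, 3687, 3626 and 3263 in DKO replicates 1 to 4. The groups did not overlap, and DKO replicate 1 was the lowest. The difference, as a log2 fold change, was -0.37 (SE 0.09, edgeR adjusted p = 0.0211). Without WT replicate 1 the edgeR adjusted p was 0.0652, and without WT replicate 4 it was 0.0637. Hsf1 activity is set after translation, by trimerization and phosphorylation, so its transcript level does not measure it.

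Hspa8 (ENSMUSG00000015656.17, plus strand of chromosome 9 from 40800984 to 40810087) encodes HSC70, the constitutive HSP70 that folds new proteins and strips clathrin from vesicles. Its WT libraries held 164519, 167803, 156768 and 144144 normalized counts. Its DKO libraries held 69385, 109705, 134523 and 69974. No DKO library reached the WT range, and the DKO libraries differed among themselves by more than the WT libraries did. DKO replicates 1 and 4 lay 1.19 and 1.18 below the WT mean on the log2 scale, DKO replicate 2 lay 0.53 below it and DKO replicate 3 only 0.23 below it. Over all libraries the log2 fold change came to -0.72 (SE 0.20, edgeR adjusted p = 0.0330). The edgeR adjusted p rose above 0.05 when any 1 of the WT libraries or DKO replicate 4 was left out, to 0.0883, 0.0873, 0.0641 and 0.0642 without WT replicates 1 to 4 and to 0.0731 without DKO replicate 4. Of the 150-base stretches of the main Hspa8 transcript, 56.0% also occur in transcripts of other genes. The gene that shares the most of them, Gm26825, annotated as a lincRNA, was far below Hspa8, with means of 2666 in WT and 1931 in DKO. Reads from shared stretches may also have been lost, since the authors removed alignments of low mapping quality, so the level of Hspa8 is uncertain.

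Hspa1a (ENSMUSG00000091971.3, from 34969190 to 34972156) and Hspa1b (ENSMUSG00000090877.3, from 34956436 to 34959238) lie on the minus strand of chromosome 17 and encode the inducible HSP70, which is scarce in resting cells and among the most strongly induced proteins after heat. Hspa1a had 1949, 2470, 810 and 1719 normalized counts in WT, against 957, 849, 2448 and 660 in DKO. The groups overlapped, since WT replicate 3 was as low as the DKO libraries and DKO replicate 3 was close to the highest WT library. Its log2 fold change of -0.50 did not pass (SE 0.44, edgeR adjusted p = 0.453). Hspa1b had 281, 342, 127 and 159 normalized counts in WT, against 417, 294, 935 and 249 in DKO. Here too the groups overlapped, with DKO replicate 3 the highest and DKO replicates 2 and 4 within the WT range. Nor did its log2 fold change of 1.06 pass (SE 0.47, edgeR adjusted p = 0.137).

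The pair is shown with its upstream sequence because both copies carry the same heat shock element at the same place and yet their counts moved in different proportions. The 250 bases before the start of each gene, from RefSeq promoter windows of GRCm38.p6, were identical at 98.8% of positions and differed at 3 of them, between 2 and 207 bases before the start. Capitals mark the match to GAANNTTC, 2 units of the element facing each other, whose first base lies 104 bases before the start in both. The windows are chr17:34972157-34972406 for Hspa1a and chr17:34959239-34959488 for Hspa1b, both on the minus strand and printed 5′ to 3′.
Hspa1a: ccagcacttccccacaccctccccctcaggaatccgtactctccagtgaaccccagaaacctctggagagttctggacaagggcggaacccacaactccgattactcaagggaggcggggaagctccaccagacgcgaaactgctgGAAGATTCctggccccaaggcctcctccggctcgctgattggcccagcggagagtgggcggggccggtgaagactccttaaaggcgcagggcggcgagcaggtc
Hspa1b: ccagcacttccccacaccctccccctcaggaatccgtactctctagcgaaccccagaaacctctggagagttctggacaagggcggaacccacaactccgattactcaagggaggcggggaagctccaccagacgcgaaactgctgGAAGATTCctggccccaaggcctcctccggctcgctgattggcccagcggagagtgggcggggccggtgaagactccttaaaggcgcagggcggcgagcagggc

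Reads from the shared stretches of such copies may be assigned to either gene or lost. Of the 150-base stretches of the main transcript, 46.0% of those of Hspa1a and 40.5% of those of Hspa1b occur in another gene, mostly in each other, and the authors removed alignments of low mapping quality, so the levels of the separate genes are uncertain. With the counts of the pair summed, the mean ± SD over 4 libraries was 1964 ± 786 normalized counts in WT against 1702 ± 1137 in DKO, and the log2 fold change was -0.21 (SE 0.44, edgeR adjusted p = 0.774). The summed level was 2229, 2812, 936 and 1878 in WT replicates 1 to 4 and 1374, 1143, 3383 and 909 in DKO replicates 1 to 4. DKO replicate 3 was the highest of all the libraries and DKO replicate 4 the lowest, so that inducible HSP70 varied more within a genotype than between them.

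The split between the copies, noticed after the values were seen, was steadier than their sum. Hspa1b took 12.6%, 12.2%, 13.5% and 8.47% of the summed counts in WT replicates 1 to 4 and 30.4%, 25.7%, 27.6% and 27.4% in DKO replicates 1 to 4. The means were 11.7% ± 2.22 for WT and 27.8% ± 1.91 for DKO (SD, n = 4 each), a difference of 16.1 percentage points with no overlap. No test is given, since the share was singled out for this separation. The share rested on 146 to 397 Hspa1b counts per library in WT and 238 to 766 in DKO. DKO replicate 3, whose summed level was more than that of any other library, had the same share as the other DKO libraries. Which parts of each gene the counts came from, and any part of sequence differences between the chromosomes of the embryos, was not tested.

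**Figure D1:**
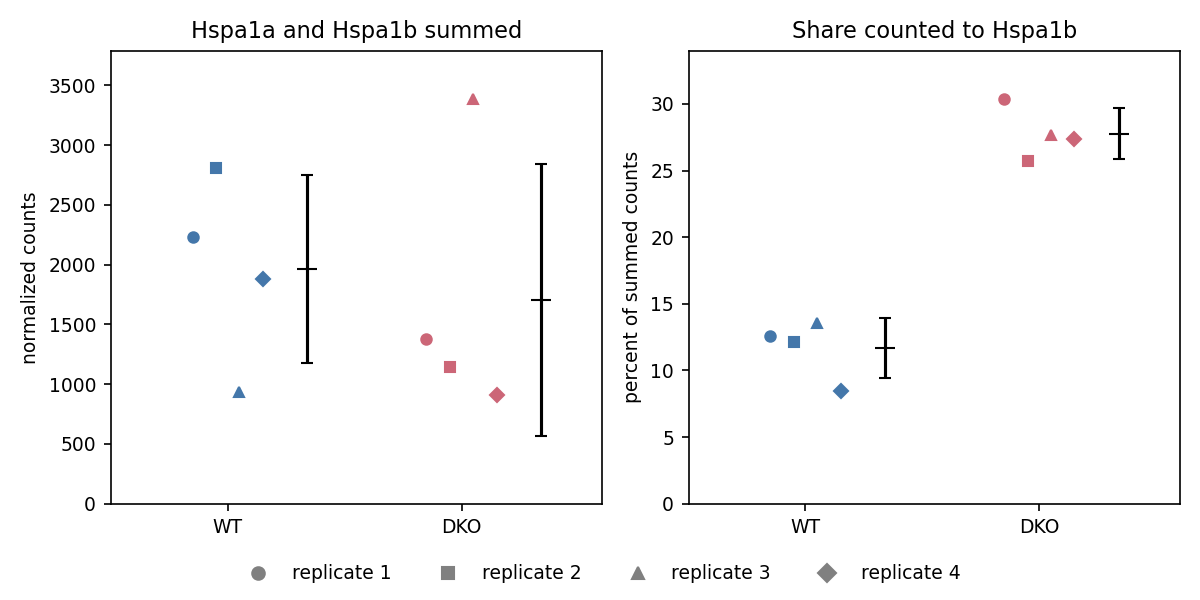
The left panel plots the summed normalized counts of Hspa1a and Hspa1b in each library, and the right panel the percent of the summed counts that fell to Hspa1b, with 4 WT and 4 DKO libraries (symbols: replicates; black: mean and SD). The sums run from 936 to 2812 in WT and from 909 to 3383 in DKO, whereas the shares are 8.47% to 13.5% in WT and 25.7% to 30.4% in DKO.

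Hsph1 (ENSMUSG00000029657.15, minus strand of chromosome 5 from 149614287 to 149636376) encodes HSP110, the exchange factor that resets HSP70 and helps it dissolve aggregates. It had 9161, 8882, 8333 and 8027 normalized counts in WT, against 4449, 6197, 7134 and 4512 in DKO. All DKO libraries lay below all WT libraries, DKO replicates 1 and 4 most. Hsph1 fell by 0.63 on the log2 scale (SE 0.15, edgeR adjusted p = 0.0193). The edgeR adjusted p was 0.0626 without WT replicate 1 and 0.0569 without WT replicate 2.

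Dnajb1 (ENSMUSG00000005483.10, plus strand of chromosome 8 from 83608193 to 83612653) encodes HSP40, the J-domain partner that hands clients to HSP70. It had 6806, 6522, 5324 and 6685 normalized counts in WT, against 4007, 4372, 6019 and 4737 in DKO. The groups overlapped only because DKO replicate 3 lay above WT replicate 3. The log2 fold change was -0.41 (SE 0.13), which missed the threshold (edgeR adjusted p = 0.0588). It passed in 5 of 16 alternatives, which were those without DKO replicate 3 (-0.53, edgeR adjusted p = 0.0123), without WT replicate 3 (-0.49, edgeR adjusted p = 0.0433), with library size in place of TMM (edgeR adjusted p = 0.0400), with at least 10 counts in every library (edgeR adjusted p = 0.0461) and under DESeq2 (adjusted p = 0.0237).

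Bag3 (ENSMUSG00000030847.8, plus strand of chromosome 7 from 128523616 to 128546981) encodes an HSP70 exchange factor that steers clients to autophagy and is a strong target of HSF1. It had 772, 690, 737 and 723 normalized counts in WT, against 789, 839, 857 and 650 in DKO. The ranges overlapped, and DKO replicate 4 was the lowest of all the libraries. The log2 fold change was 0.10 (SE 0.13, edgeR adjusted p = 0.626).

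Neither HSP90 gene differed beyond the spread between libraries. Hsp90ab1 (ENSMUSG00000023944.14, minus strand of chromosome 17 from 45567775 to 45573271) encodes the constitutive form and had 171629, 172911, 173638 and 164153 normalized counts in WT, against 146584, 186753, 180114 and 161081 in DKO. The DKO libraries lay on both sides of the WT range (log2 fold change -0.02, SE 0.09, edgeR adjusted p = 0.915). Hsp90aa1 (ENSMUSG00000021270.13, minus strand of chromosome 12 from 110690605 to 110702728) encodes the inducible form and had 61012, 65518, 66651 and 51241 in WT and 48939, 70728, 74025 and 58714 in DKO. Again the DKO libraries spanned the WT range (log2 fold change 0.05, SE 0.14, edgeR adjusted p = 0.845). For both genes the sign changed with the scaling or with the library left out, and no direction is given. Of the 150-base stretches of the main Hsp90aa1 transcript, 36.2% also occur in transcripts of other genes, so its level is uncertain.

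Hspb1 (ENSMUSG00000004951.10, plus strand of chromosome 5 from 135887919 to 135889563) encodes HSP25, a small heat shock protein that holds unfolded clients and guards actin filaments. It was the scarcest member in WT, with 22.0, 30.1, 19.98 and 19.2 normalized counts. The DKO libraries held 237, 66.3, 142 and 98.2. No DKO library was as low as a WT library, and DKO replicate 1 was at 3.58 times the level of DKO replicate 2. Hspb1 rose by 2.57 on the log2 scale (SE 0.46, edgeR adjusted p = 0.00670), or 5.92-fold. The edgeR adjusted p was at most 0.0294 whichever single library was left out, with log2 fold changes of 2.15 to 2.79, the lowest without DKO replicate 1. Of the 150-base stretches of the main Hspb1 transcript, 36.6% also occur in transcripts of other genes. These 2 genes, Hsp25-ps1 and Gm9817, held at most 1.16 and 4.88 normalized counts in any library. Reads from shared stretches may also have been lost, so the level of Hspb1 is uncertain.

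Mesenchyme markers were also higher in DKO. The sum of Col1a1, Col1a2, Col3a1, Dcn, Lum and Pdgfrb was 3179, 1982, 5468 and 4577 normalized counts in WT replicates 1 to 4 and 40967, 12151, 12999 and 20116 in DKO replicates 1 to 4. DKO replicate 1 was the highest in both measures and DKO replicate 2 the lowest of the DKO libraries in both, but DKO replicate 3 had more Hspb1 than DKO replicate 4 (142 and 98.2) and a smaller marker sum. In WT the order differed, since replicate 2 had the most Hspb1 and the smallest marker sum. The muscle markers also rose, from sums of 826 to 1336 in WT to 1848 to 4895 in DKO. Of these 5 genes, 4 were higher at an adjusted p under 0.05, beside 10.7% of all genes tested. The summed neural markers were at 155 to 260 normalized counts in WT and at 1790, 244, 488 and 373 in DKO replicates 1 to 4. Within DKO this was the order of Hspb1, but DKO replicate 2 lay within the WT range. In WT, replicate 2 had the smallest neural sum and the most Hspb1. Of 4 neural genes tested, 1 was higher at an adjusted p under 0.05, beside 10.7% of all genes tested. The part of mesenchyme, muscle or neural cells in the level of Hspb1 was not tested.

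**Figure D2:**
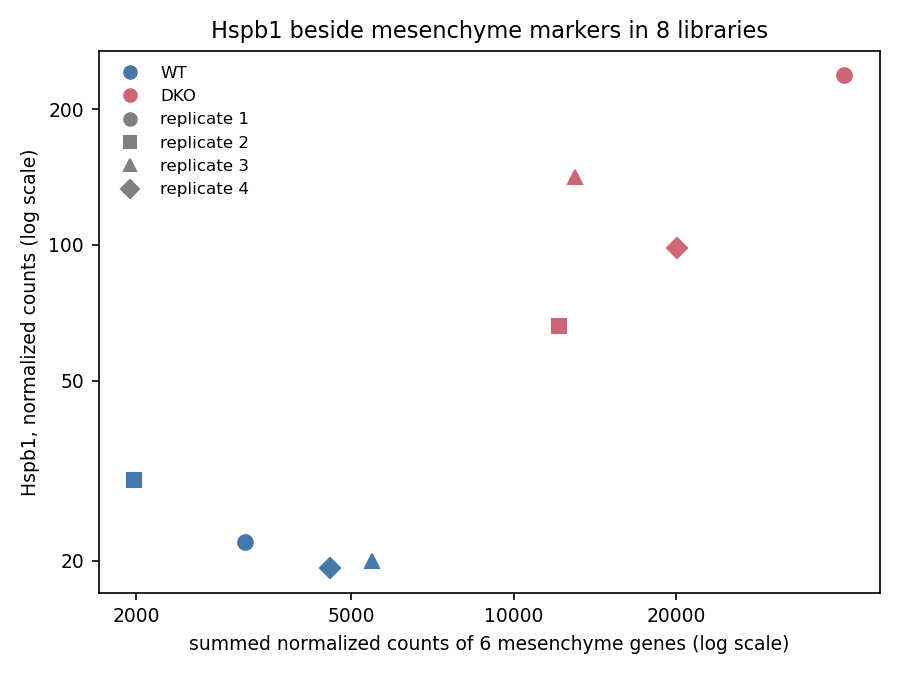
Each point is 1 of the 8 libraries, with the summed normalized counts of 6 mesenchyme markers on the x axis and the normalized counts of Hspb1 on the y axis, both on log scales (colour: genotype; symbol: replicate). The 4 WT libraries lie at 19.2 to 30.1 counts of Hspb1 and the 4 DKO libraries at 66.3 to 237, where the marker sums are 12151 to 40967.

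The members' values in all libraries show that the rank of a library recurred across these genes. DKO replicate 1 had the lowest level of the DKO libraries for 6 of the 10 members. How often each library is the highest or lowest over all genes tested was not computed. DKO replicate 3 had the highest level of the DKO libraries for 7 of the 10 members, among them Hspa8, Hspa1a, Hspa1b, Hsph1 and Dnajb1, the genes of the HSP70 system. It is also the DKO library with Ddx3y reads, and it stood apart in markers, with a hepatoblast sum of 146802 normalized counts against 351187 to 534160 in the other DKO libraries and the highest erythroid sum of all libraries, 52011. The part of these cells in its levels was not tested. Without it, 5 members were lower in DKO at an edgeR adjusted p under 0.05, now also Hspa1a (log2 fold change -1.08, edgeR adjusted p = 0.0497) and Dnajb1. In that fit, 1995 of all 18004 genes tested were lower. DKO replicate 3 alone against the 4 WT libraries, all of which had Ddx3y reads, gave log2 fold changes of -0.25 for Hspa8, -0.29 for Hsph1, -0.29 for Hsf1, 2.61 for Hspb1 and 2.02 for Hspa1b. These are values with no measure of the spread in DKO, and nothing is called from them. With 1 such library in DKO, what sets it apart and sex cannot be told apart.

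**Figure D3:**
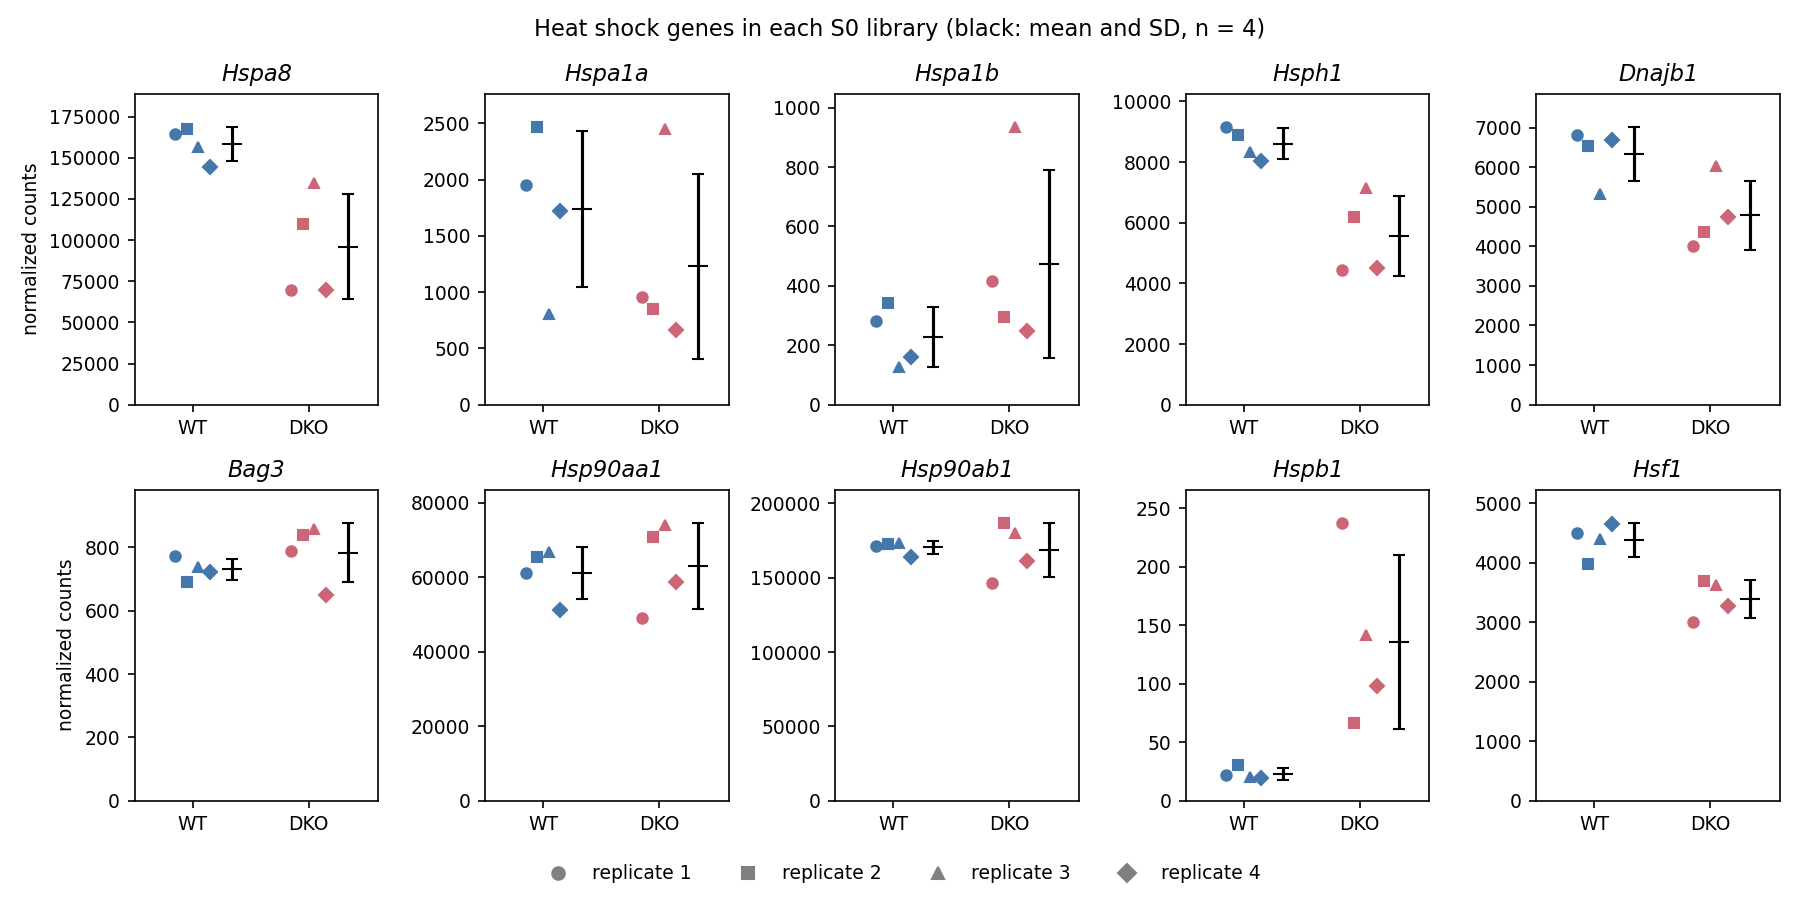
Each panel plots the normalized counts of 1 heat shock gene in the 4 WT and 4 DKO libraries, on an axis from 0 of its own (symbols: replicates; black: mean and SD, n = 4). The groups do not overlap for Hspa8, Hsph1 and Hsf1, where DKO is lower, and for Hspb1, where it is higher, and the triangle of DKO replicate 3 stands at the top of the DKO points for Hspa1a, at 2448 counts, and for Hspa1b, at 935.

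**Figure D4:**
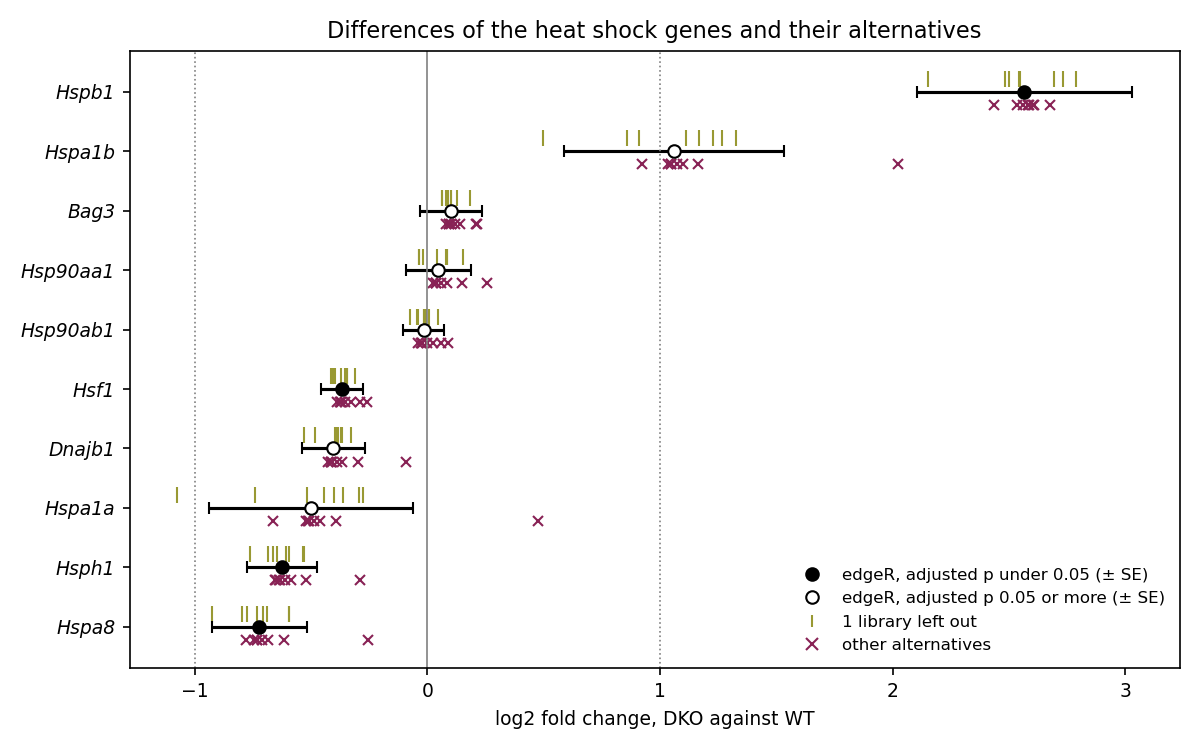
The x axis gives the log2 fold change of DKO against WT for each heat shock gene, with the edgeR value and its SE (filled: adjusted p under 0.05), ticks for fits without 1 library and crosses for the other alternatives. Hspb1 stays between 2.15 and 2.79, whereas Hspa1a runs from -1.08 to 0.48 and Hspa8 from -0.93 to -0.25.

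Scaled by the length of all exons of each gene, the order of the members' means was the same in both genotypes. On the TPM scale (transcript abundance per length, scaled to the same total in each library), computed from the counts and the length of all exons of a gene, Hsp90ab1 led with 3632 ± 99.5 in WT against 3283 ± 226 in DKO (SD over 4 libraries). Hspa8 followed with 2351 ± 176 TPM in WT and 1295 ± 387 in DKO, and Hsp90aa1 with 992 ± 109 and 935 ± 131. These 3 chaperones were far above the rest, and the ranges of neighbours among them did not overlap in WT. In DKO the ranges of Hspa8 (940 to 1766 TPM) and Hsp90aa1 (787 to 1063 TPM) did overlap. Dnajb1 had 126 ± 15.7 TPM in WT, Hsph1 75.6 ± 5.39, Hsf1 39.4 ± 2.54, Hspa1a 37.6 ± 15.5, Bag3 18.2 ± 0.86, Hspa1b 5.20 ± 2.38 and Hspb1 1.42 ± 0.33. Of neighbours in this order, Hsf1 and Hspa1a did not differ beyond their spread, and the range of Hspa1a, 16.9 to 53.9, also held the levels of Bag3. In DKO, Hspb1 reached 7.87 ± 4.76 TPM and remained the lowest, within the spread of Hspa1b at 9.84 ± 6.28. The order may depend on the length used, since all exons of a gene can be much longer than its main transcript. These lengths are 4301 and 2394 bases for Hspa8, 7099 and 2104 for Hsf1, but 2999 and 2520 for Hsp90ab1. The order by main transcript length was not computed. TPM were computed without TMM, so the genotypes are better compared in normalized counts. The means of Hsp90ab1, for example, were closer there, at 170583 in WT and 168633 in DKO.

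The promoter windows of the members were searched for 2 neighbouring units of the heat shock element, GAANNTTC or TTCNNGAA, on both strands. RefSeq windows of GRCm38.p6, 250 bases before to 50 bases after the start, were at hand for Hspa1a, Hspa1b, Hsph1, Dnajb1, Hspb1 and Bag3. A match stood in 5 of these 6 genes (83.3%), against 17.0% of 27025 genes and 18 of 57 (31.6%) other chaperone and cochaperone genes, and Dnajb1 had none. A match to 3 units in a row stood in 1 of the 6 (16.7%), Hsph1, and in 0.662% of all genes. It begins 36 and 15 bases after the RefSeq starts of Hsph1 and is not the match of Hsph1 printed below. Hspb1 and Hsph1, which moved in opposite directions, are shown with 1 match each before a RefSeq start. The 30-base stretches are chr5:135887791-135887820 on the plus strand for Hspb1, where the capitals begin 117 bases before the start, and chr5:149636351-149636380 on the minus strand for Hsph1, where they begin 33 bases before the RefSeq start at 149636336. The GENCODE model of Hsph1 given above starts further upstream, so that these capitals begin 7 bases inside it.
Hspb1: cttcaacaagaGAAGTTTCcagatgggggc
Hsph1: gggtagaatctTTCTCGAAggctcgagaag
A match of letters is a description and does not show that HSF1 binds there, and carrying one went with no single direction, since Hsph1 fell, Hspb1 rose and Bag3 had a log2 fold change of 0.10. These matches differ in place, since that of Bag3 begins 42 bases after its RefSeq start and Hsph1 also has matches after its starts.

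The other genes of the pathway were taken from lists of HSP70, J-domain, exchange factor, HSP90 co-chaperone, small heat shock, heat shock factor, chaperonin and other heat-inducible genes. Of their 68 genes 62 were tested, and 4 were lower and 10 higher at an adjusted p under 0.05, beside the 10.8% and 10.7% of all genes, with a median log2 fold change of -0.01. Among HSP70 relatives, 2 of 5 fell and none rose (3 and 0 at an unadjusted p under 0.05). These were Hspa4 (log2 fold change -0.42, edgeR adjusted p = 0.0214) and Hspa4l (-0.41, edgeR adjusted p = 0.0374), which are HSP110 exchange factors like Hsph1. Among 12 HSP90 co-chaperones, Stip1, which bridges HSP70 and HSP90, fell from 21676 ± 1232 to 15742 ± 2112 normalized counts (-0.46, edgeR adjusted p = 0.0144). Chordc1, an HSP90-binding protein, also fell (-0.46, edgeR adjusted p = 0.0375), and Sugt1, an adaptor of HSP90, rose (0.25, edgeR adjusted p = 0.0473).

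In the J-domain, exchange factor, chaperonin and small heat shock lists no gene fell in edgeR, where 4, 1, 0 and 0 genes were lower at an unadjusted p under 0.05. Bag1, an exchange factor that links HSP70 to the proteasome, rose from 2005 ± 223 to 3399 ± 339 normalized counts (log2 fold change 0.76, edgeR adjusted p = 0.00313). Dnajc21, a J-domain protein of ribosome assembly, rose by 0.59 (edgeR adjusted p = 0.0267). Of the 14 subunits of TRiC and prefoldin, the machines that fold actin and tubulin, 4 rose and all 4 were prefoldin subunits, with Pfdn5 (0.48), Pfdn2 (0.45) and Pfdn1 (0.43) having the smallest p. No TRiC subunit passed the test. Of the other 7 small heat shock genes 4 were tested and Hspb11 rose (0.64, edgeR adjusted p = 0.0331). Hspb11 is named for its likeness to this family and is a subunit of the transport machinery of cilia. Of the heat shock factors and HSBP1, only Hsf2 and Hsbp1 had enough counts to be tested, and neither passed.

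Among the other heat-inducible genes, 2 of 6 rose and none fell (3 and 1 at an unadjusted p under 0.05). Serpinh1, which encodes the collagen chaperone HSP47, rose from 3310 ± 718 to 18010 ± 8499 normalized counts (log2 fold change 2.44, edgeR adjusted p = 0.00208). It was the only gene of the pathway lists with a log2 fold change beyond 1 at an adjusted p under 0.05. The 3 collagen genes among the mesenchyme markers also rose, and the part of mesenchyme cells in the level of Serpinh1 was not tested. Ubb, a polyubiquitin gene, rose by 0.37 (edgeR adjusted p = 0.0123). The mitochondrial pair Hspd1 and Hspe1 had log2 fold changes of -0.30 and 0.34 and did not pass.

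Lists of other stress programs were described in the same way. Of all genes tested, 10.8% were lower and 10.7% higher at an adjusted p under 0.05. Of 15 ER chaperones, which fold secreted proteins, 6 fell and none rose (8 and 0 at an unadjusted p under 0.05), with a median log2 fold change of -0.35. Pdia3 (-0.58, edgeR adjusted p = 0.00308), Pdia6 (-0.48) and Pdia4 (-0.63), all disulfide isomerases, had the smallest p. Of 14 targets of the integrated stress response, in which eIF2α phosphorylation favours translation of ATF4, 11 rose and none fell (also 11 and 0 at an unadjusted p under 0.05), with a median of 1.41. Trib3 rose from 146 ± 15.5 to 4543 ± 3525 normalized counts (4.95, edgeR adjusted p = 0.000962), Slc7a11 by 4.08 and Nupr1 by 3.89. Of 20 immediate early genes, which growth signals and tissue dissociation induce within minutes, 8 rose and 2 fell, with a median of 0.76. At an unadjusted p under 0.05, 12 were higher and 2 lower. Ier5 (1.06), Jund (0.91) and Socs3 (1.55) had the smallest p among those that rose, and Fos (-0.89, edgeR adjusted p = 0.0337) and Zfp36 (-0.64) fell.

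**Figure D5:**
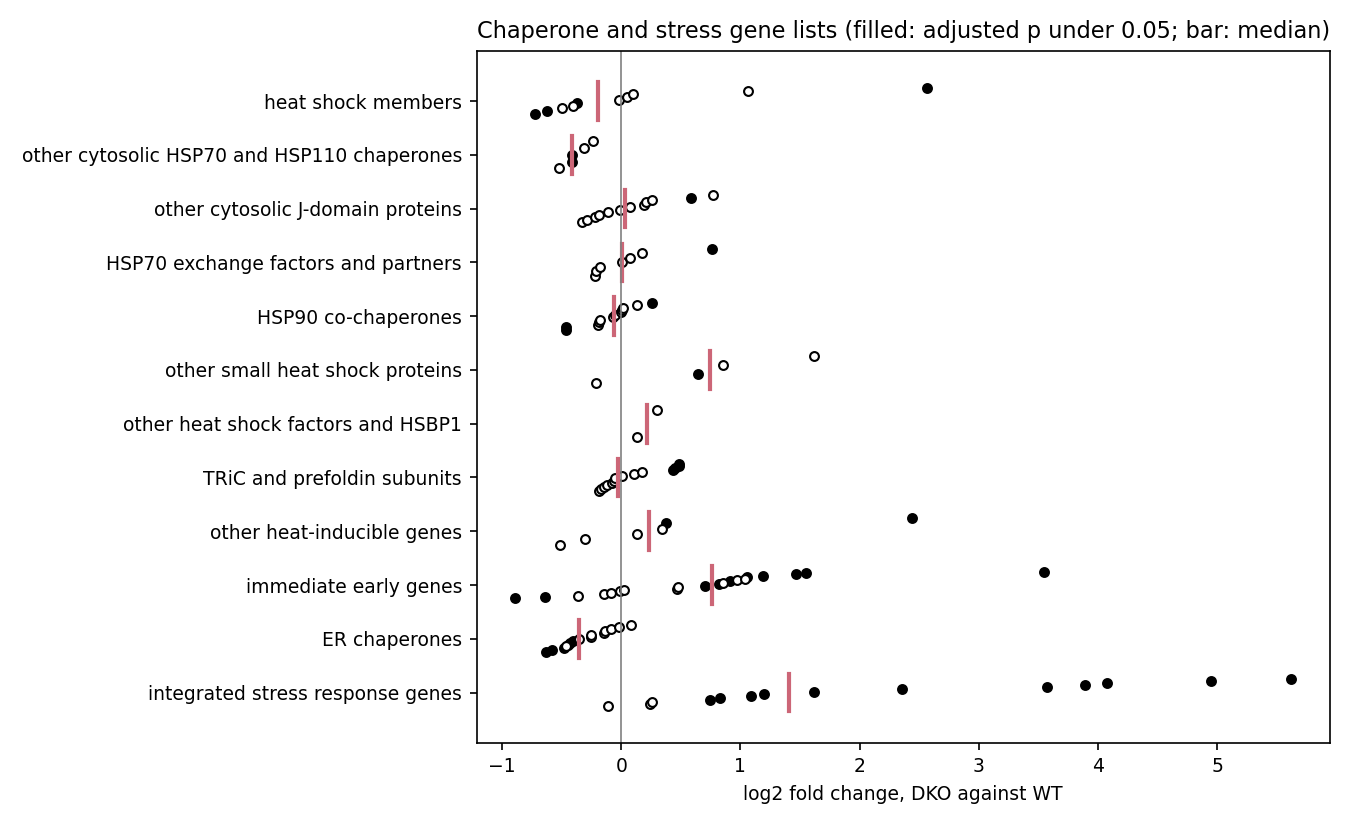
Each point is a tested gene placed by its log2 fold change of DKO against WT on the x axis, in rows for the 10 heat shock members and for each chaperone or stress list (filled: edgeR adjusted p under 0.05; bar: median of the list). The medians are -0.19 for the heat shock members, -0.35 for the ER chaperones, 0.76 for the immediate early genes and 1.41 for the integrated stress response.

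A search for genes with a like pattern used the mean standardized log2 level of Hspa1a, Hspa1b, Hsph1 and Dnajb1. It was compared over the 8 libraries with 13753 genes of at least 50 normalized counts. Pearson's r was highest for Tmem126b (0.97), Ciao1 (0.96), Vamp3 (0.95), Mob1b (0.95) and Cdc45 (0.94). These are the extremes of many genes over few libraries, given as a description, and none of the 5 passed the test between the genotypes.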

How the data were processed

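Reads of template-switched polyA RNA libraries from S0 cells (4 WT, 4 DKO) were trimmed with fastp 0.21.0 and mapped with HISAT2 2.2.1 to mm10, versions as in the submitters' processing notes, and alignments of low mapping quality were removed by the authors. The deposited values are raw counts per gene, whole numbers derived from coverage with StringTie 1.3.3b, neither normalized nor pooled. The strand setting is not given in the sources used here, so counts of overlapping or antisense genes are uncertain. Depth is the total count per library, and the spread between libraries exceeded counting error (chi-square per gene of at least 18.5 within a genotype).

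Symbols came from GENCODE M21 (52489 of 52636 identifiers matched, version ignored). Counts were filtered with filterByExpr, scaled by TMM and compared with edgeR 4.0.16 (robust quasi-likelihood test, R 4.3.3, Benjamini-Hochberg adjustment over 17378 genes, no covariate). The thresholds were an adjusted p of 0.05 and a log2 fold change of 1. Normalized counts are CPM on TMM-scaled libraries, brought back to the mean library size. The steps were tested on simulated data. The alternatives were a test with DESeq2 1.42.0, scaling by library size alone or by the upper quartile, no filter, at least 10 counts in every library, protein-coding genes other than histones, a replicate block, each library left out, libraries with at least 100 counts of Ddx3y, and the adjusted p alone.

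The members and lists were chosen with earlier results of these data known, so they are no independent support. The genes named were all 10 members, of each list at most 3 genes in each direction with the smallest p among those past the adjusted p, Vps13a, Vps13c, Xist, Ddx3y, the markers, and the 5 genes most alike. Hspd1, Hspe1, Hsf2, Hsbp1, Gm26825, Hsp25-ps1, Gm9817 and the Hspa1b share were chosen after their values were seen.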

Additional observations from a re-analysis of the deposited data

Results flagged for a closer look

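In DKO replicate 3 Hspa1a had 2448 normalized counts, against 660 to 957 in the other DKO libraries. Its gap to the nearest of them was 0.834 of the range of the group, above the critical value of Dixon's test for 4 samples at the 95% level. It was the only 1 of 20 groups (10 members in 2 genotypes) to pass this limit, and chance flags about 1 in 20.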

How the results depend on the processing

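The fold change of Hspb1 kept its direction and its side of the threshold in all 16 alternatives (2.15 to 2.79), 1 of which has a single DKO library and tests nothing by itself, and the difference in the Hspa1b share, 16.1 percentage points, ran from 15.0 to 16.8 with 1 library left out. The counts of members that passed were less steady. With an adjusted p under 0.05 alone, 4 members counted as called instead of 1. Under upper-quartile scaling 1 member and 1 pathway gene were lower, and Hspa8 (edgeR adjusted p = 0.0536) and Hsf1 (0.0546) missed the threshold, while relative to the shifted median of all genes they were at -0.76 and -0.40, as under TMM. With only the libraries that had Ddx3y reads (1 DKO, 4 WT), which leaves no spread in DKO and assumes that it equals that of WT, so that these counts are values and not calls, 2 members were past the thresholds, 0 were lower, 2 were higher, 2 pathway genes were lower, Hspa1a was at 0.48 and the summed Hspa1a and Hspa1b counts at 0.77, both opposite in sign to the full comparison. DESeq2 had 7 pathway genes lower. With 1 library left out, 1 to 2 members were called, 0 (without WT replicate 1) to 5 (without DKO replicate 3) were lower, 0 to 5 pathway genes were lower, 6 to 12 were higher, and the summed Hspa1a and Hspa1b counts ran from -0.78 to 0.021. Hsp90ab1 turned positive under upper-quartile scaling (0.090), among protein-coding genes (0.022), with only the libraries that had Ddx3y reads (0.060), without DKO replicate 1 (0.047) and without DKO replicate 4 (0.0076), and was at -0.074 without DKO replicate 2. Hsp90aa1 ran from -0.037 to 0.15 with 1 library left out. Other than the libraries and genes that an alternative leaves out, the cause was not tested.

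Libraries with the same replicate number did not deviate together (correlations of -0.16, 0.07, -0.07 and 0.03), and 1 of 4 correlated best with its own number. With replicate number as a block, 1 pathway gene instead of 4 was lower, the edgeR adjusted p of Hsf1 was 0.0711, and 613 and 343 genes instead of 1076 and 423 were called higher and lower over the whole table. DESeq2 tested 30070 genes and called 1665 higher and 619 lower. At these depths Hspb1 in WT rested on fewer than 31 normalized counts per library, the least of the members.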
